A study of Homo sapiens with 10 samples.

Results

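TPC-1 cells, a human papillary thyroid carcinoma line driven by a CCDC6-RET fusion, received the RET inhibitor BLU667 for 24 h and were compared with cells that received its solvent. BLU667, also named pralsetinib, is a selective small-molecule inhibitor of the RET kinase. The BLU667 group held 2 RNA-seq libraries of parental cells given 5 µM BLU667, and the DMSO group held 2 libraries of parental cells given DMSO for the same time. All of these cells carried the fusion, and the series design names the libraries of a group as biological replicates of this 1 line. The same series holds 3 colonies, BR8, BR10 and BR16 (2 libraries each), raised from TPC-1 cells kept in 5 µM BLU667, for more than 50 days by the sample labels and for more than 5 months by the series design. Their levels are set beside the 24 h values in places, and differences from them were not tested here. Genes with a deposited level of at least 1 FPKM in 2 or more of the 4 libraries were taken, which gave 12677 of the 58735 genes in the table. FPKM count fragments per kilobase of gene, scaled to the mapped fragments of the library, and so adjust a level for gene length and sequencing depth.

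RET is a receptor tyrosine kinase. In the CCDC6-RET fusion the kinase domain is joined to a partner that dimerises by itself, so that the kinase signals without a ligand, through RAS, RAF, MEK and ERK and through PI3K and AKT. ERK activity is read in the transcripts of its own feedback inhibitors, the Sprouty, Spred and DUSP proteins, and of transcription factors such as FOSL1 and the PEA3 group of ETS factors. Cyclin D1 and its kinases inactivate RB and so release the E2F factors that induce genes of DNA replication. MYBL2 and FOXM1 then drive the genes of mitosis. In resting cells the DREAM complex, built on RBL1 or RBL2 with E2F4 and the MuvB proteins, silences both sets through E2F sites and through a promoter element called CHR. AKT keeps FOXO factors out of the nucleus, where they would induce genes of quiescence.

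The libraries held between 15703804 and 18063122 reads in genes. Across genes, which are not independent replicates, the log2 levels of replicate libraries correlated at r = 0.984 in BLU667 and 0.978 in DMSO. The median absolute log2 difference between replicates was 0.118 in BLU667 and 0.203 in DMSO. The signed difference, replicate 1 minus replicate 2, had a Spearman correlation with GC content across genes of 0.063 in BLU667 and 0.66 in DMSO. Mitochondrial genes took 6.49% and 4.44% of reads in BLU667, and 4.65% and 5.33% in DMSO. Of 15 thyroid follicular markers, 10 stayed under 0.5 FPKM in all 4 libraries, among them TG, TSHR, SLC5A5, NKX2-1 and IYD, and 4 were tested. The summed level of the 15 was 79.0 and 75.0 FPKM in BLU667, against 67.6 and 50.2 FPKM in DMSO. Of this sum GLIS3 made up 34.6 and 34.9 FPKM in BLU667, against 6.39 and 6.65 FPKM in DMSO. FOXE1 and HHEX were called lower. The thyroid and kidney factor PAX8 held 40.0 and 35.8 FPKM in BLU667, against 53.4 and 35.3 FPKM in DMSO, and was not called. Of 7 epithelial markers KRT8, KRT18 and CLDN1 reached the filter. KRT8 held 18.3 and 17.2 FPKM in BLU667, against 26.6 and 20.7 FPKM in DMSO, and was not called, nor was CLDN1. KRT18, whose exons overlap those of another gene, held 9.36 and 11 FPKM in BLU667, against 36 and 28.2 FPKM in DMSO, and was called lower. The other 4, EPCAM, CDH1, KRT19 and KRT7, stayed below the filter, EPCAM and CDH1 at 0.18 FPKM or less. No marker of immune, endothelial, erythroid, C or squamous cells reached the filter, and of 8 fibroblast markers 3 did. The 8 had summed levels of 24.8 and 28.4 FPKM in BLU667 and 28.0 and 29.6 FPKM in DMSO. PDGFRB and COL1A1 were called higher and PDPN lower.

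After 24 h, more of the measured transcriptome differed than did not. Most tested genes of replication, of the mitotic kinases and kinetochore, of ribosome assembly and of cytosolic chaperones were lower in BLU667, as were 16 of 27 ERK-induced transcription factors. Higher were 21 of 32 FOXO target and quiescence genes and 17 of 22 clustered histone genes. With limma, a linear model whose spread is shared across genes, and Benjamini-Hochberg adjusted p below 0.05, 6914 of 12677 genes were called (54.5%), 3307 higher in BLU667 (26.1%) and 3607 lower (28.5%). Of these, 1235 were at least 2-fold higher (9.74%) and 1558 at least 2-fold lower (12.3%). Folds in these counts were taken on the scale of FPKM + 1, on which falls outnumbered rises more as the change grew. At least 4-fold, 369 genes fell and 192 rose. At least 8-fold, 141 fell and 45 rose, and at least 16-fold, 54 fell and 9 rose. FOLR1, 83.8-fold higher in mean FPKM, was not among these 9. The part of this scale in the excess of falls was not tested. All changes are log2 differences of FPKM + 1, BLU667 minus DMSO, given ± SE, which understates changes of low genes. The median change of all genes was -0.03. Without BLU667 replicate 1 the counts were 2220 higher and 2472 lower, and without BLU667 replicate 2 they were 2094 and 2290. An unadjusted p below 0.05 was reached by 7669 genes, and 1423 called genes changed by less than 1.5-fold. The libraries of the groups did not overlap in 79.0% of tested genes, 4871 higher in BLU667 and 5146 lower. A lack of overlap thus sets no gene apart. Counts in the lists below stand beside the shares of 26.1% higher and 28.5% lower. A gene under 1 FPKM in both libraries of a group passed the filter only through the other group, so the filter shapes its direction. The p-values measure the spread among these 4 libraries. FPKM are shares of a library's RNA, and in bulk RNA fewer cells of a kind and less RNA per cell cannot be told apart. A dagger (†) marks a gene with over 10% of its exon bases inside exons of another gene, whose reads this non-directional library cannot assign by strand. A double dagger (‡) marks a called gene that lost its call when 1 or more of the 4 libraries was left out, and the lowest and highest change over these 4 fits then follow its SE.

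**Figure D1:**
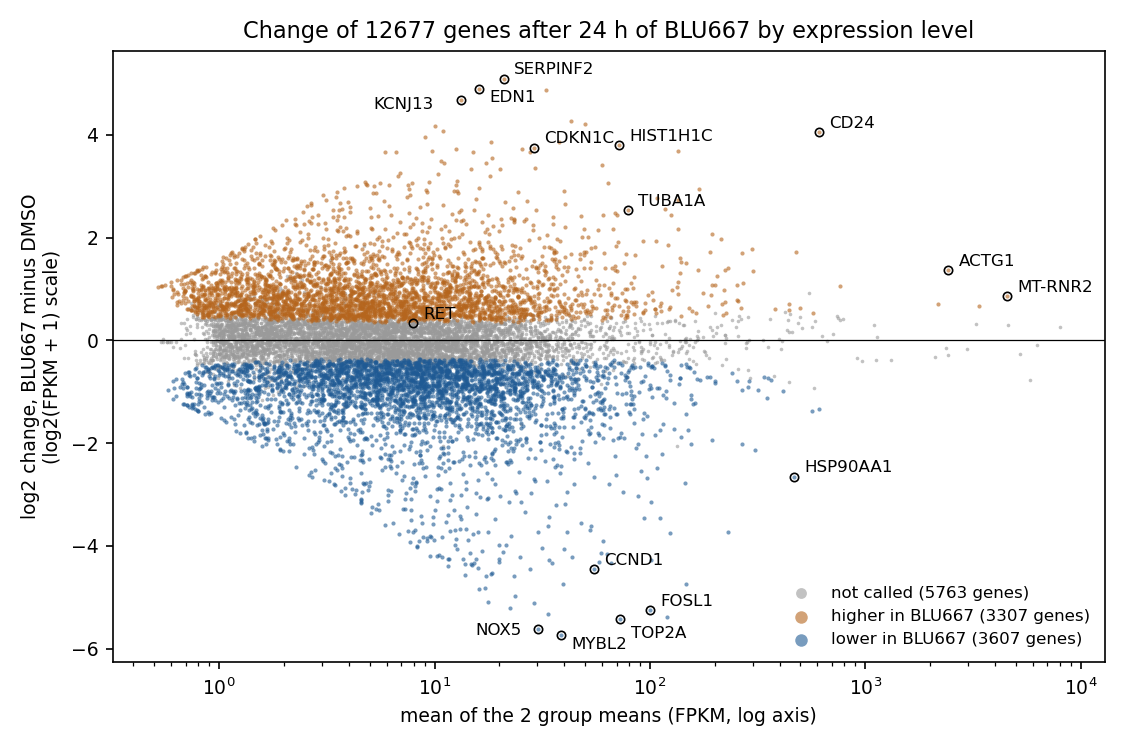
Each point is 1 of 12677 tested genes, placed by its mean level in FPKM (log axis) and its log2 change, BLU667 minus DMSO. Named falls such as MYBL2, NOX5, TOP2A and FOSL1 lie below -5, the rise of SERPINF2 lies just above 5, and the abundant genes CD24, ACTG1 and MT-RNR2 lie above 0 at the right.

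The drug's target was not called, and its adaptors and proximal kinases differed in both directions. Of these adaptors and kinases 63.6% were called, against 54.5% of all genes tested. RET, the kinase gene of the fusion (chromosome 10, 43077027 to 43130351, plus strand, GRCh38), held 8.52 and 9.34 FPKM in BLU667, against 6.90 and 6.92 FPKM in DMSO. Both BLU667 libraries were above both DMSO libraries, as in 4871 of the 12677 genes tested. The change was not called (0.33 ± 0.13, adjusted p = 0.0667). Gene totals do not separate fusion transcripts from those of the normal allele. Of 22 tested adaptors and proximal kinases, 6 were higher (3 without BLU667 replicate 1 and 3 without BLU667 replicate 2), 8 lower (4 without BLU667 replicate 1 and 5 without BLU667 replicate 2) and 8 not called. Among the lower ones were the docking protein DOK1 (-1.43 ± 0.16), the kinase SRC (-1.15 ± 0.17), HRAS (-1.07 ± 0.16), the adaptor SHC1† (-1.03 ± 0.19) and the phosphatase PTPN11‡ (-0.75 ± 0.15, -0.87 to -0.64), which carries receptor signals to RAS. Higher were the exchange factor SOS2 (1.11 ± 0.15), the docking protein GAB1 (1.03 ± 0.16) and the ERK1 gene MAPK3‡ (0.56 ± 0.19, 0.35 to 0.78).

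ERK feedback inhibitors of the Sprouty and Spred families fell. SPRY4, an inhibitor of RAS activation, held 0.199 and 0.0438 FPKM in BLU667, against 9.22 and 8.74 FPKM in DMSO. The ERK phosphatase DUSP6† held 0.135 and 0.0621 FPKM in BLU667, against 7.04 and 5.75 FPKM in DMSO. Both were near 0 in each BLU667 library and clearly expressed in each DMSO library, with changes of -3.16 ± 0.15 and -2.75 ± 0.16. Of 19 tested feedback genes, 9 fell, among them SPRY1 (-2.30 ± 0.14), SPRY2 (-2.26 ± 0.15), DUSP5 (-1.79 ± 0.23) and the 3 Spred genes SPRED3 (-1.59), SPRED1 (-1.37) and SPRED2 (-1.31). Against that direction, the stress-kinase phosphatases DUSP8 (1.11 ± 0.19), DUSP16 (0.92 ± 0.14) and DUSP1‡ (0.45 ± 0.14, 0.34 to 0.55) rose, and ERRFI1, which restrains EGFR, was not called (-0.41 ± 0.15). The list's median change was -0.41, against -0.03 over all genes.

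Several transcription factors that ERK induces were among the largest falls. FOSL1, an AP-1 subunit, held 5.93 and 2.74 FPKM in BLU667, against 221 and 169.8 FPKM in DMSO, a change of -5.26 ± 0.29 (adjusted p = 3.31e-05). The shear and growth-factor responsive factor KLF2 held 0.704 and 0.371 FPKM in BLU667, against 33.2 and 26.9 FPKM in DMSO. All 3 PEA3 factors fell: ETV5 (-4.18 ± 0.13) with 0.176 and 0.218 FPKM in BLU667, against 19.8 and 21.6 FPKM in DMSO, ETV1 (-2.94 ± 0.15) and ETV4 (-2.53 ± 0.22). Of 27 tested factors, 16 fell, 4 rose (2 without BLU667 replicate 1, 1 without BLU667 replicate 2 and 2 without DMSO replicate 1) and 7 were not called (median -0.76). MYC, the growth regulator, held 42.9 and 32.1 FPKM in BLU667, against 78.9 and 73.9 FPKM in DMSO (-1.02 ± 0.17). In the list of MYC, MAX and their relatives 3 of 12 genes were higher and 3 lower. That is 50% called, against 54.5% of all genes tested. The MYC antagonists MXD4 (1.30 ± 0.20) and MXI1 (1.14 ± 0.13) and the third MYC gene MYCL (1.83 ± 0.16), which held 2.52 and 3.08 FPKM in BLU667, against 0.0533 and 0.0874 FPKM in DMSO, rose, while the antagonist MXD3† (-1.53 ± 0.20) and MLX†‡ (-0.46 ± 0.14, -0.57 to -0.35) fell with MYC. FOSL2, the other FOS-like gene, rose with 73.7 and 84.6 FPKM in BLU667, against 29.4 and 24.5 FPKM in DMSO (1.52 ± 0.16). The immediate early factor EGR1 held 2.81 and 1.03 FPKM in BLU667, against 2.73 and 2.44 FPKM in DMSO, and was not called (-0.37 ± 0.28), nor were JUNB and KLF4.

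Genes of the PI3K and AKT branch changed in both directions, and several inhibitors of the branch were among the rises. PIK3IP1, an inhibitor of the PI3K catalytic subunit, held 14.4 and 19.7 FPKM in BLU667, against 1.40 and 1.41 FPKM in DMSO, a change of 2.89 ± 0.17. FOXO3, a transcription factor that AKT inactivates, held 14.4 and 14.6 FPKM in BLU667, against 5.02 and 4.87 FPKM in DMSO (1.38 ± 0.12). The lipid phosphatase INPP4B (1.23 ± 0.14), the mTOR binder DEPTOR (1.30 ± 0.13) and the receptors IGF1R (1.06 ± 0.14) and INSR‡ (0.72 ± 0.15, 0.61 to 0.84) rose as well. AKT1 (-1.21 ± 0.15), MTOR (-0.94 ± 0.12) and its partner RPTOR‡ (-0.62 ± 0.16, -0.80 to -0.45) fell, as did the mTOR inhibitor DDIT4†‡ (-1.84 ± 0.36, -2.34 to -1.35). In all, 17 of 36 were higher (12 without BLU667 replicate 1 and 8 without BLU667 replicate 2) and 11 lower (7 without BLU667 replicate 1 and 7 without BLU667 replicate 2).

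Receptors for other growth factors rose more often than they fell, with 10 of 20 higher and 4 lower (2 without BLU667 replicate 1 and 3 without BLU667 replicate 2). EPHB2, an ephrin receptor, held 18.2 and 27.0 FPKM in BLU667, against 2.37 and 1.85 FPKM in DMSO. EGFR held 63.1 and 59.1 FPKM in BLU667, against 18.8 and 19.6 FPKM in DMSO. PDGFRB held 11.8 and 15.4 FPKM in BLU667, against 2.80 and 2.71 FPKM in DMSO. EPHB2, EGFR and PDGFRB changed by 2.90 ± 0.20, 1.62 ± 0.13 and 1.95 ± 0.16. FGFR2 (1.13 ± 0.18), FGFR3 (1.02 ± 0.17) and FGFR4 (0.85 ± 0.14) also rose, while the HGF receptor MET‡ (-0.71 ± 0.16, -0.86 to -0.55) and the ephrin receptor EPHA2‡ (-0.77 ± 0.15, -0.91 to -0.63) fell. Their ligands split. The EGFR ligands TGFA (-1.97 ± 0.15), EREG (-1.76 ± 0.22) and HBEGF (-0.70 ± 0.15) fell with VEGFA (-1.67 ± 0.16), and PDGFD (2.42 ± 0.17), PDGFB (1.41 ± 0.16) and VEGFC (1.04 ± 0.13) rose.

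Cyclins and transcription factors that start S phase and mitosis were among the largest falls, and the CDK inhibitors p57, p27 and p15 rose. Cyclin D1, CCND1†, which couples ERK to the cycle, held 3.99 and 3.80 FPKM in BLU667, against 104 and 108 FPKM in DMSO. MYBL2, the activator of G2 and mitosis genes, held 0.532 and 0.394 FPKM in BLU667, against 83.2 and 70.2 FPKM in DMSO. E2F1, the activator of S-phase genes, held 0.136 and 0.230 FPKM in BLU667, against 17.1 and 16.4 FPKM in DMSO. No BLU667 library came within 4-fold of a DMSO library in these 3 genes, whose changes were -4.45 ± 0.13, -5.73 ± 0.15 and -3.91 ± 0.13, with adjusted p = 8.62e-06, 8.62e-06 and 8.62e-06. FOXM1† (-3.67 ± 0.15), the repressors E2F7 (-3.08 ± 0.15) and E2F8 (-2.68 ± 0.15), and E2F2 (-2.46 ± 0.16) fell as well, and 14 of 17 cell-cycle transcription factors did. Only TFDP2‡ (0.69 ± 0.13, 0.64 to 0.74), a partner of E2F, was higher in that list. Of 16 G1 cyclins, kinases and RB family genes, 14 fell, and RBL2†‡ (0.54 ± 0.14, 0.46 to 0.61), the DREAM pocket protein of resting cells, rose. CDK6 held 14 and 15.1 FPKM in BLU667, against 12 and 15.5 FPKM in DMSO, and was not called.

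CDK inhibitors differed by gene. CDKN1C, which encodes p57, held 60.7 and 49.2 FPKM in BLU667, against 3.46 and 2.83 FPKM in DMSO. CDKN1B, which encodes p27, held 74.2 and 77.4 FPKM in BLU667, against 24.4 and 22.3 FPKM in DMSO. CDKN2B, which encodes p15, held 9.39 and 9.47 FPKM in BLU667, against 2.06 and 1.81 FPKM in DMSO. These 3 rose by 3.75 ± 0.16, 1.66 ± 0.14 and 1.83 ± 0.13. CDKN1A‡, the p21 gene, held 21.8 and 20.0 FPKM in BLU667, against 33.7 and 27.9 FPKM in DMSO, which was called lower (-0.53 ± 0.15, -0.66 to -0.40). CDKN3, a mitotic phosphatase named as an inhibitor, fell with 1.79 and 1 FPKM in BLU667, against 28.3 and 32.5 FPKM in DMSO (-3.73 ± 0.19). CDKN2A, the gene of p16 and ARF, held 54.9 and 57.2 FPKM in BLU667, against 57.9 and 47.5 FPKM in DMSO, where the groups overlapped and no change was called.

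**Figure D2:**
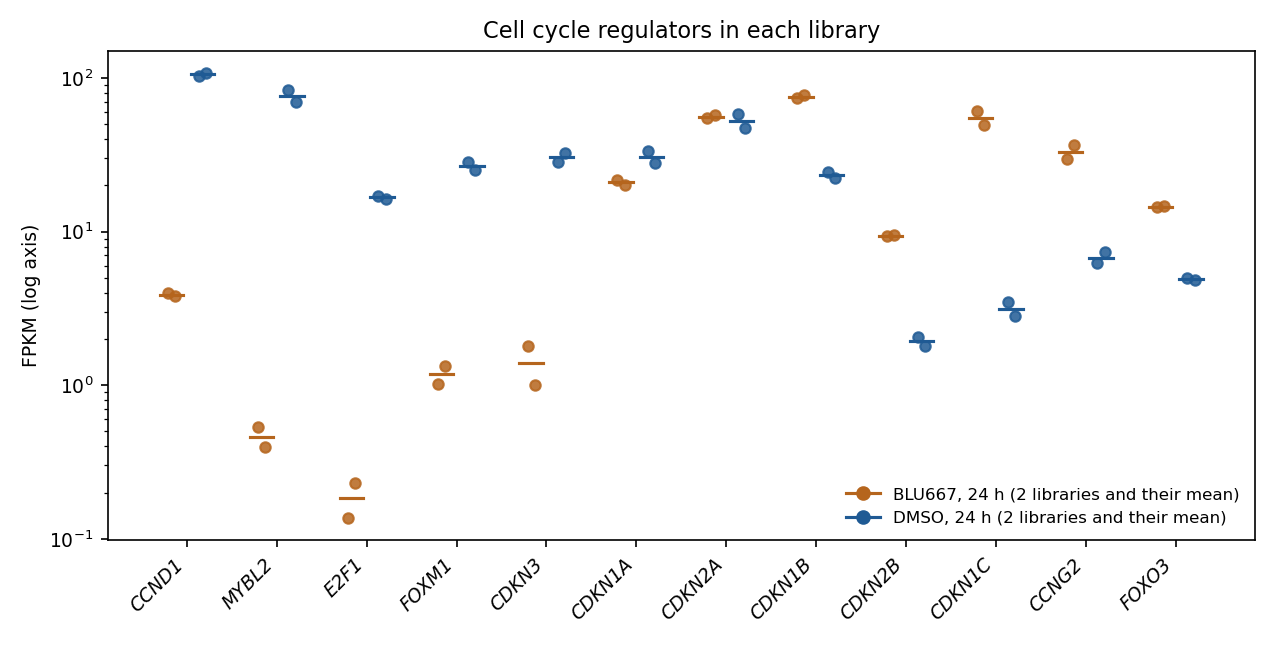
FPKM (log axis) of 12 cell cycle regulators in each BLU667 library (left of each pair) and each DMSO library, with the mean of the 2 libraries as a bar. CCND1, MYBL2, E2F1, FOXM1 and CDKN3 lie far lower in BLU667, CDKN1C, CDKN1B, CDKN2B, CCNG2 and FOXO3 lie higher, and CDKN2A overlaps.

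Promoters of genes with large falls are shown because they hold letters of the elements that E2F and DREAM are known to bind. The windows run from 250 bases before to 50 bases after the annotated start, come from RefSeq on GRCh38.p14, and are written 5′ to 3′ along the gene. In the first 3, capitals mark matches on either strand to the CHR element (TTTGAA or TTCGAA) and to CCAAT, the box bound by NF-Y. They belong to the members of the mitosis lists with the largest falls whose window held both.
HJURP, a chaperone of the centromere histone, chr2:233854486-233854785, minus strand: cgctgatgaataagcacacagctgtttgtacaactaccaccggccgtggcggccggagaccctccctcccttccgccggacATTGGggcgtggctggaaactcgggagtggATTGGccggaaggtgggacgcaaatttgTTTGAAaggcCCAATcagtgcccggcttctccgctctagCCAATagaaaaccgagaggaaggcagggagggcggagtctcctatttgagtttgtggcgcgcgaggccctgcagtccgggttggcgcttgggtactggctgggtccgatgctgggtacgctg
BUB1, a spindle checkpoint kinase, chr2:110678014-110678313, minus strand: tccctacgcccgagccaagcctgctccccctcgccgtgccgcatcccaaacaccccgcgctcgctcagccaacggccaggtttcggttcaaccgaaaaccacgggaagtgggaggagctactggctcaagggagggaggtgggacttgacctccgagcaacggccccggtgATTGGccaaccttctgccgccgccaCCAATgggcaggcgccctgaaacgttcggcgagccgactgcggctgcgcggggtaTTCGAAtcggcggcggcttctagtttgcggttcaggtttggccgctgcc
KIFC1†, a mitotic kinesin, chr6:33391573-33391872, plus strand: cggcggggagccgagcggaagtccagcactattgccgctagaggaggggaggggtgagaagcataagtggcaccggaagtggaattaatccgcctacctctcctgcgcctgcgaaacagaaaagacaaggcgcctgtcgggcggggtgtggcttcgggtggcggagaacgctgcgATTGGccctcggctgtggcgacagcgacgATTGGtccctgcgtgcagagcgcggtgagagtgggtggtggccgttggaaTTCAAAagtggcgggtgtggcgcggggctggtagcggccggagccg
In the next 2, members of the replication lists, capitals mark E2F matches (TTTGGCGC, TTTCCCGC, TTTCGCGC or TTTGCCGC on either strand).
CLSPN, the replication checkpoint adaptor, chr1:35769929-35770228, minus strand: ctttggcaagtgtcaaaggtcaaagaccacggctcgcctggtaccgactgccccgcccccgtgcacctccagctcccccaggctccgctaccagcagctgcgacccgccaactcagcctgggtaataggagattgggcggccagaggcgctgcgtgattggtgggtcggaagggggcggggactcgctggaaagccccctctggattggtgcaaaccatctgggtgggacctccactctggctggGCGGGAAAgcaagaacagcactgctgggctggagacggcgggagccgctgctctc
CDC6, the origin licensing factor, chr17:40287629-40287928, plus strand: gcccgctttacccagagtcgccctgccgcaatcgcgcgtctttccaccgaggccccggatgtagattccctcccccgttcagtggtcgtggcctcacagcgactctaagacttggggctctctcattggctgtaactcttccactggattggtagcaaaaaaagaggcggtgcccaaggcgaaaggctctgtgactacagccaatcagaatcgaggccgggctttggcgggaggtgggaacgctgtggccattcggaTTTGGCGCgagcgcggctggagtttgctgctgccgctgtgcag
Among the 30 largest rises only the window of LTB, the lymphotoxin beta gene, held a match to the FOXO motif TGTTTAC or to the CRE motif TGACGTCA. Capitals mark the FOXO match.
LTB, chr6:31582376-31582675, minus strand: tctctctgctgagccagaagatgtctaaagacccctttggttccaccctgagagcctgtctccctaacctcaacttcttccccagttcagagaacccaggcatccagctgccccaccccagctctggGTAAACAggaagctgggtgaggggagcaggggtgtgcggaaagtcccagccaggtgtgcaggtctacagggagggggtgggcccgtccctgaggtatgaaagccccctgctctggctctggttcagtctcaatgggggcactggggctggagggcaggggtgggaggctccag
Of 104 mitosis genes called lower, 84 had a window, and 59.5% of these windows held a CHR match, against 10.7% of the 9278 windows of all tested genes. A CHR and a CCAAT match together stood in 36.9%, against 4.76%, and a CCAAT match, with or without CHR, in 54.8%, against 37.0%. Of 66 replication genes called lower, 57 had a window, of which 38.6% held an E2F match, against 5.66% of all windows. The E2F motif stood in 8.33% of the mitosis windows and the CHR element in 8.77% of the replication windows, of which 56.1% held CCAAT. For all genes called at least 4-fold lower, 33.6% of 283 windows held CHR, 17.3% E2F and 55.5% CCAAT. For genes called at least 4-fold higher, 10.3% of 126 windows held CHR, 3.97% E2F and 43.7% CCAAT. List members not called were not counted, so whether these shares go with the fall or with the list was not tested. A match is a description of these letters, not a binding site, and a window with no match says only that these letters are not in it.

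DNA replication genes were lower with few exceptions. MCM4, a subunit of the replicative helicase, held 5.52 and 5.52 FPKM in BLU667, against 109 and 117 FPKM in DMSO (-4.13 ± 0.13). CDC6, which loads that helicase, held 0.225 and 0.280 FPKM in BLU667, against 14 and 17.2 FPKM in DMSO (-3.72 ± 0.15). PCNA, the sliding clamp, held 15.1 and 14.2 FPKM in BLU667, against 166 and 179 FPKM in DMSO (-3.46 ± 0.14). Of 27 licensing and helicase genes 25 fell (median -2.39), with CDC45 (-3.92), GINS1 (-3.70) and MCM10 (-3.59) next to MCM4 and CDC6 at the low end. The exceptions in that list were the origin recognition subunits ORC5 (-0.50), which was not called, and ORC4‡ (0.71, 0.46 to 0.95), which rose. The subunits ORC6 (-2.84) and ORC1 (-2.39) fell with the list. Of 31 polymerase, clamp and ligase genes 30 fell (median -2.06), from the histone chaperone ASF1B (-4.83), the flap nuclease FEN1 (-3.80) and CLSPN (-3.76) to POLE4‡ (-0.56, -0.61 to -0.51). With any 1 library left out, between 29 and 30 of them and between 23 and 26 licensing genes were called lower.

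Enzymes that supply DNA precursors were lower too. RRM2†, the cell-cycle regulated subunit of ribonucleotide reductase, held 0.534 and 0.476 FPKM in BLU667, against 39.0 and 54.9 FPKM in DMSO (-4.97 ± 0.18). TK1, thymidine kinase of S phase, held 4.55 and 5.19 FPKM in BLU667, against 67.6 and 58.7 FPKM in DMSO (-3.45 ± 0.14). TYMS†, thymidylate synthase, held 1.56 and 2.12 FPKM in BLU667, against 31.4 and 21.2 FPKM in DMSO (-3.25 ± 0.21). The reductase subunit RRM2B, which also serves resting cells, held 18.8 and 18.2 FPKM in BLU667, against 16.8 and 22.1 FPKM in DMSO, and neither it nor the mitochondrial kinase TK2 was called, whereas the other 11 of 13 genes fell. Purine and pyrimidine synthesis showed 15 of 19 genes lower and none higher, among them CTPS1 (-2.23 ± 0.15), PFAS (-1.78 ± 0.14) and CAD (-1.66 ± 0.13).

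Of all the lists used here, that of mitotic kinases had the lowest median. Of 20 mitotic kinases, cyclin B genes and phosphatases, 19 fell, with a median of -3.66 and PBK (-5.12 ± 0.17), a mitotic kinase, furthest, and between 18 and 19 did with any 1 library left out. CDK1, the mitotic kinase, held 2.24 and 2.59 FPKM in BLU667, against 58.0 and 73.6 FPKM in DMSO. Its partner CCNB1 held 4.91 and 6.77 FPKM in BLU667, against 102 and 141 FPKM in DMSO. PLK1† held 1 and 1 FPKM in BLU667, against 40.6 and 37.4 FPKM in DMSO. WEE1, the kinase that restrains CDK1, held 6.28 and 6.67 FPKM in BLU667, against 6.64 and 8.34 FPKM in DMSO. WEE1 was the one gene of the list not called, whereas CDK1, CCNB1 and PLK1 changed by -4.28 ± 0.16, -4.16 ± 0.21 and -4.32 ± 0.13. TOP2A, the topoisomerase of dividing cells, held 1.47 and 3.50 FPKM in BLU667, against 123 and 163 FPKM in DMSO. MKI67, the Ki-67 marker, held 0.621 and 0.723 FPKM in BLU667, against 66.7 and 66.0 FPKM in DMSO.

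Kinetochore genes were lower too, 39 of 43 lower (median -2.71). HJURP held 0.416 and 0.542 FPKM in BLU667, against 34.7 and 33.9 FPKM in DMSO (-4.58 ± 0.13). NUF2 of the NDC80 complex held 0.304 and 0.428 FPKM in BLU667, against 23.1 and 31.7 FPKM in DMSO (-4.36 ± 0.18). CENPA, the centromere histone, held 0.0859 and 0.493 FPKM in BLU667, against 18.5 and 17.8 FPKM in DMSO (-3.91 ± 0.18). The one gene above DMSO was SKA2‡ (0.57 ± 0.16, 0.40 to 0.75), although its complex partners SKA1 (-3.49) and SKA3 (-3.82) fell. Around the anaphase promoting complex, activators and partner enzymes fell while most core subunits were not called. The activator CDC20 (-4.33 ± 0.15), the enzymes UBE2C (-4.74 ± 0.16) and UBE2S (-4.07 ± 0.14) and the inhibitor FBXO5 (-2.78 ± 0.16) fell, whereas CDC16, CDC23, ANAPC2, ANAPC4, ANAPC5, ANAPC11, ANAPC13, ANAPC15 and CDC26 were not called and ANAPC16‡ (0.61 ± 0.14, 0.51 to 0.71) rose. Condensin subunits fell, from NCAPH (-4.57) to NCAPH2 (-1.51), with the cohesin ring genes SMC1A (-2.42), SMC3 (-1.19) and RAD21† (-1.47), while the cohesin loaders and release factors NIPBL, MAU2, WAPL, PDS5A and PDS5B were not called. Mitotic kinesins fell, KIF20A (-4.60 ± 0.22) and KIFC1† (-4.43 ± 0.16) furthest, but KIF12, a kinesin of kidney epithelium, held 112 and 108 FPKM in BLU667, against 11.4 and 7.64 FPKM in DMSO, a change of 3.42 ± 0.19.

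Repair genes differed by pathway. Homologous recombination and Fanconi anaemia genes were lower in 27 of 31 cases (median -1.75). BRCA1 held 1.16 and 1.27 FPKM in BLU667, against 10.5 and 12.3 FPKM in DMSO (-2.48 ± 0.14). RAD51AP1, a recombination factor, held 0.311 and 0.427 FPKM in BLU667, against 15.8 and 23.1 FPKM in DMSO (-3.88 ± 0.19). FANCF† (0.94 ± 0.15) and FAN1†‡ (0.59 ± 0.12, 0.57 to 0.60) rose. Of 37 genes of other repair routes, 16 fell, 5 rose (2 without BLU667 replicate 1, 1 without BLU667 replicate 2 and 2 without DMSO replicate 1) and 16 were not called. The nucleotide excision genes ERCC2, ERCC3 and ERCC4 were not called. The replication, mitosis, cycle and repair lists together held 321 tested genes, of which 22 were higher (14 without BLU667 replicate 1 and 11 without BLU667 replicate 2), 244 lower and 55 not called. These genes made up 148 of the 369 falls of at least 4-fold (40.1%) and 30 of the 54 falls of at least 16-fold (55.6%).

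Histone variants and chromatin enzymes of dividing cells fell, and clustered histone genes rose. H2AFX, the histone of DNA damage marking, held 9.64 and 8.45 FPKM in BLU667, against 197 and 191 FPKM in DMSO. H2AFZ, which encodes H2A.Z, held 17.2 and 18.5 FPKM in BLU667, against 199 and 211 FPKM in DMSO. DNMT1, the maintenance DNA methyltransferase, held 4.36 and 4.15 FPKM in BLU667, against 33.2 and 28.2 FPKM in DMSO. The changes were -4.28 ± 0.14, -3.45 ± 0.14 and -2.59 ± 0.14. Lower as well were the DNMT1 recruiter UHRF1 (-3.02 ± 0.14), the lamins LMNB1 (-3.15 ± 0.13) and LMNB2 (-3.20 ± 0.18) and HMGB2 (-3.90 ± 0.13). Among Polycomb enzymes EZH2 (-1.45 ± 0.13) fell and EZH1 (0.87 ± 0.12), the paralog of resting cells, rose. By contrast 17 of 22 clustered histone genes rose (median 1.58). HIST1H1C, a linker histone, held 126 and 143 FPKM in BLU667, against 7.31 and 10.3 FPKM in DMSO (3.80 ± 0.18). HIST1H2AC held 81.4 and 84.5 FPKM in BLU667, against 2.97 and 3.79 FPKM in DMSO (4.27 ± 0.15). HIST1H2BK (2.40 ± 0.15), HIST1H2BD (3.66 ± 0.20) and HIST1H4I (2.60 ± 0.15) rose too, and the only fall was HIST2H2AC‡ (-0.90 ± 0.23, -1.22 to -0.58). Clustered histone genes have near-identical copies, so single members are uncertain. Replication histone transcripts lack poly(A) tails, and the selection step of these libraries was not given in the sources used here.

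**Figure D3:**
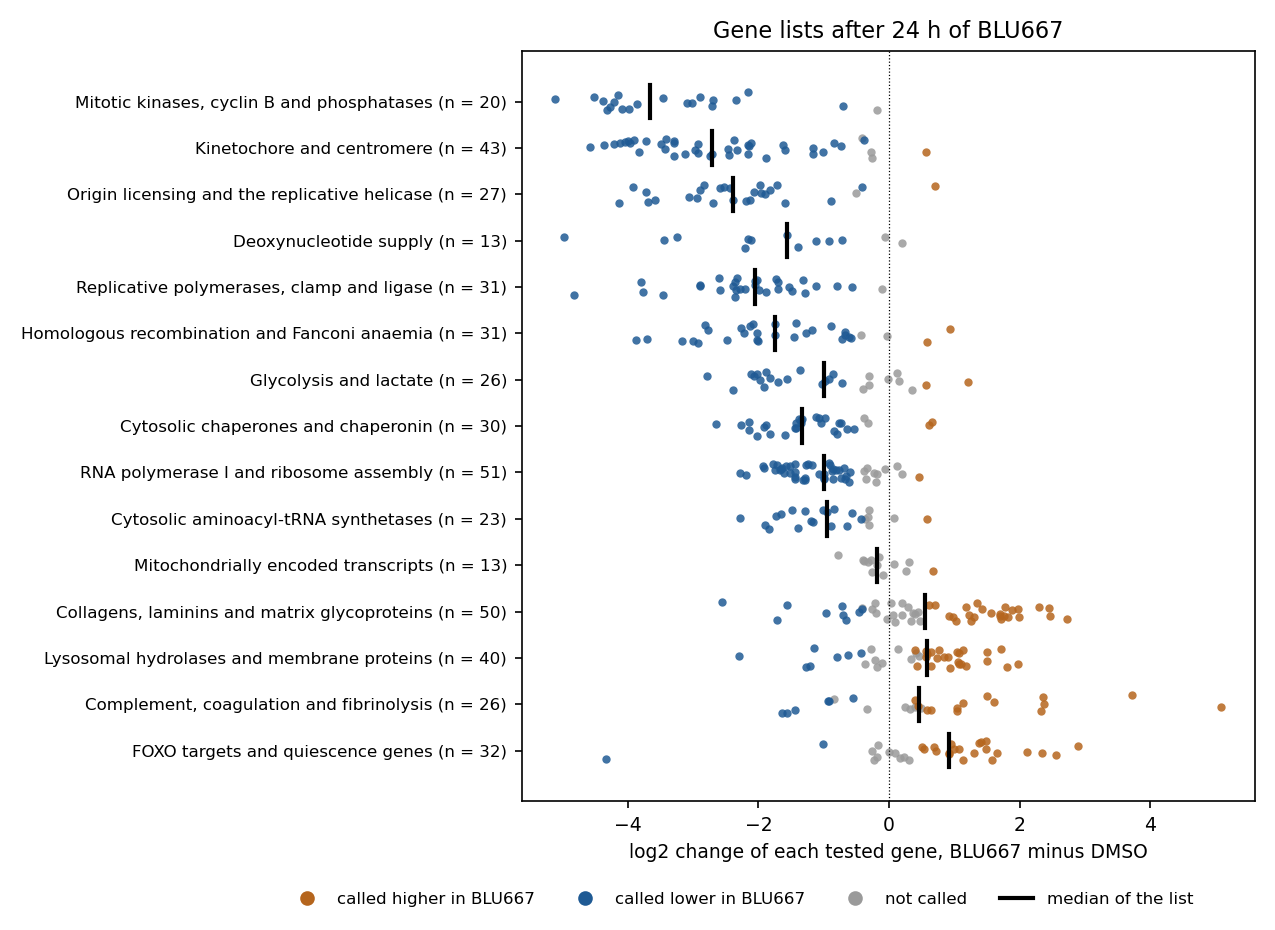
Each point is the log2 change (BLU667 minus DMSO) of 1 tested gene in 15 gene lists, coloured by its call, and the black bar is the list's median. The mitotic kinase list lies between -5.12 and -0.18, the mitochondrially encoded transcripts lie around 0, and the FOXO list lies mostly above 0 except for KLF2 and GADD45A among the calls.

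Genes of ribosome assembly and of tRNA charging were mostly lower, by less than the mitosis genes. Of 51 genes of RNA polymerase I and ribosome assembly, 41 were lower and 1 higher (0 without BLU667 replicate 1 and 0 without BLU667 replicate 2), with a median of -1. NCL, nucleolin, held 53.2 and 47.9 FPKM in BLU667, against 173 and 170.0 FPKM in DMSO (-1.75 ± 0.14). BOP1, a factor of large-subunit maturation, held 7.92 and 9.04 FPKM in BLU667, against 51.7 and 39.5 FPKM in DMSO (-2.29 ± 0.17), and NOLC1 (-2.18 ± 0.13) and DDX21 (-1.93 ± 0.16) fell with it. Nucleophosmin, NPM1, held 398 and 360.2 FPKM in BLU667, against 397 and 463 FPKM in DMSO, and was not called. The ribosomal proteins themselves mostly did not pass the test: 36 of 49 large-subunit and 24 of 32 small-subunit genes were not called, with medians of 0.10 and 0.28. Mitochondrial ribosomal proteins of the large subunit were lower in 30 of 46 cases (16 without BLU667 replicate 1 and 18 without BLU667 replicate 2). Aminoacyl-tRNA synthetases were lower in 17 of 23 cases, led by MARS† (-2.28 ± 0.13) and YARS (-1.90 ± 0.13), and QARS‡ (0.58 ± 0.15, 0.44 to 0.71) was the one that was higher.

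Translation factors divided. EIF4EBP1, the repressor of cap-dependent translation, held 9.74 and 10.5 FPKM in BLU667, against 100.1 and 58.3 FPKM in DMSO, a change of -2.80 ± 0.25. EIF5A (-2.21 ± 0.14) and EIF4G1 (-1.44 ± 0.15) fell, and 21 of 45 did. The 7 that rose (1 without BLU667 replicate 1 and 0 without BLU667 replicate 2) were EIF4A2†‡ (0.71 ± 0.14, 0.68 to 0.75), EIF3H‡ (0.50 ± 0.15, 0.36 to 0.64), EIF4B†‡ (0.65 ± 0.14, 0.57 to 0.72), EIF3L†‡ (0.65 ± 0.15, 0.52 to 0.78), EIF3E‡ (0.63 ± 0.18, 0.45 to 0.81), PDCD4†‡ (0.68 ± 0.16, 0.52 to 0.85) and EEF1A1‡ (0.70 ± 0.18, 0.68 to 0.73), which held 2726 and 2648 FPKM in BLU667, against 1642 and 1653 FPKM in DMSO.

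Chaperones and proteasome subunits were mostly lower. HSP90AA1, the inducible HSP90, held 133 and 122 FPKM in BLU667, against 719 and 896 FPKM in DMSO. HSPA8, the constitutive HSP70, held 102 and 125 FPKM in BLU667, against 449.7 and 559 FPKM in DMSO. HSPD1, the mitochondrial chaperonin, held 59.8 and 61.9 FPKM in BLU667, against 238 and 263 FPKM in DMSO. The changes were -2.65 ± 0.17, -2.14 ± 0.19 and -2.02 ± 0.14, and HSP90AA1 lost the most FPKM among called genes. All 8 CCT chaperonin genes fell, from CCT5† (-1.83) to TCP1†‡ (-0.54, -0.63 to -0.45), and 26 of 30 chaperone genes did. HSPB8‡ (0.66 ± 0.13, 0.59 to 0.74) and DNAJB4‡ (0.61 ± 0.15, 0.46 to 0.77) rose. Of 43 proteasome genes 31 fell (median -1.15), with the lid subunit PSMD3 (-1.98 ± 0.18) and the base ATPase PSMC3 (-1.97 ± 0.14) furthest. Those that rose were PSMB8†‡ (0.72 ± 0.13, 0.67 to 0.78), of the immunoproteasome, and PSME1‡ (0.60 ± 0.14, 0.52 to 0.68), its activator. Nucleoporins were lower in 19 of 21 cases and HNRNP splicing factors in 16 of 22 (9 without BLU667 replicate 1 and 11 without BLU667 replicate 2), with none higher.

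Most tested genes from glucose uptake to lactate export were lower. SLC2A1, the glucose carrier, held 11.4 and 15 FPKM in BLU667, against 63.5 and 53.5 FPKM in DMSO. HK2, hexokinase, held 7.21 and 6.02 FPKM in BLU667, against 32.6 and 30.8 FPKM in DMSO. LDHA, lactate dehydrogenase, held 108 and 104 FPKM in BLU667, against 410.2 and 451 FPKM in DMSO. SLC2A1, HK2 and LDHA changed by -2.07 ± 0.18, -2.11 ± 0.14 and -2.01 ± 0.15. The lactate exporter SLC16A3 (-2.79 ± 0.20) and ENO2 (-2.38 ± 0.20) fell further, and 17 of 26 genes fell. PFKFB3 (1.21 ± 0.17), which makes the activator of phosphofructokinase, rose, whereas its paralog PFKFB4 (-1.91 ± 0.16) fell. GAPDH† held 832 and 833 FPKM in BLU667, against 1144 and 1064 FPKM in DMSO, and was not called. Protein-coding transcripts of the mitochondrial genome were not called in 12 of 13 cases. Complex I subunits encoded in the nucleus were lower in 19 of 43 cases (8 without BLU667 replicate 1 and 12 without BLU667 replicate 2). In one-carbon metabolism the mitochondrial enzyme MTHFD2† (-2.73 ± 0.15) fell, while the folate receptor FOLR1 held 16.0 and 19.8 FPKM in BLU667, against 0.196 and 0.230 FPKM in DMSO (3.95 ± 0.15). TFRC (-2.36 ± 0.17), the transferrin receptor, fell, and the iron exporter SLC40A1 (1.29 ± 0.16) rose.

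Most tested genes of the FOXO target and quiescence list rose. Of 32 tested, 21 were higher, 2 lower and 9 not called (median 0.92), and between 17 and 21 were higher with any 1 library left out. CITED2, a transcriptional coregulator, held 191 and 210.1 FPKM in BLU667, against 34.4 and 32.2 FPKM in DMSO (2.55 ± 0.14). CCNG2, an atypical cyclin of resting cells, held 29.5 and 36.4 FPKM in BLU667, against 6.21 and 7.36 FPKM in DMSO (2.12 ± 0.16). TP53INP1, a stress and autophagy protein, held 38.1 and 41.2 FPKM in BLU667, against 6.90 and 7.17 FPKM in DMSO (2.34 ± 0.13). The BTG and TOB antiproliferative genes BTG1† (1.49 ± 0.15) and TOB1† (1.07 ± 0.13) and the 3 YPEL genes YPEL5 (1.58), YPEL3 (1.48) and YPEL2 (1.41) rose as well. TXNIP, a FOXO target in other tissues, held 52.7 and 56.1 FPKM in BLU667, against 59.4 and 63.8 FPKM in DMSO, and the insulin receptor substrate IRS2 held 6.31 and 6.32 FPKM in BLU667, against 8.61 and 7.04 FPKM in DMSO. Neither was called. KLF2 and the stress gene GADD45A (-1.01 ± 0.16) fell.

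BH3-only genes, which trigger apoptosis by blocking BCL2 proteins, moved in both directions. BMF held 16.3 and 23.5 FPKM in BLU667, against 0.188 and 0.104 FPKM in DMSO (4.17 ± 0.19). BCL2L11†, which encodes BIM, held 8.48 and 8.35 FPKM in BLU667, against 1.97 and 2.07 FPKM in DMSO (1.64 ± 0.13). PMAIP1‡, which encodes NOXA, held 11.3 and 13.7 FPKM in BLU667, against 16.4 and 22.5 FPKM in DMSO (-0.59 ± 0.19, -0.81 to -0.37). BBC3, which encodes PUMA, was not called. The pore-forming BAX (-1.17 ± 0.18) and BAK1 (-1.36 ± 0.13) fell, and among protectors MCL1 (-1.25 ± 0.14) fell while BCL2 (0.72 ± 0.15) rose.

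Lysosomal genes were higher in 24 of 40 cases (18 without BLU667 replicate 1 and 14 without BLU667 replicate 2) and lower in 7 (4 without BLU667 replicate 1 and 6 without BLU667 replicate 2). PSAP, the precursor of saposins that help degrade sphingolipids, held 714 and 745 FPKM in BLU667, against 225 and 216 FPKM in DMSO (1.72 ± 0.15). NEU1, a sialidase, held 16.9 and 19.2 FPKM in BLU667, against 4.23 and 4.62 FPKM in DMSO (1.81 ± 0.14), and TPP1† (1.51 ± 0.16), SMPD1 (1.5 ± 0.16) and CTSO (1.98 ± 0.14) rose. NPC1, the cholesterol exporter, went the other way with 12.5 and 10.3 FPKM in BLU667, against 61.6 and 58.0 FPKM in DMSO (-2.30 ± 0.15), as did CTSD† (-1.15 ± 0.23). Autophagy genes mostly were not called (24 of 42), with the receptors OPTN (1.71 ± 0.14) and SQSTM1† (0.94 ± 0.14) among the rises.

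Several of the largest rises were genes of kidney tubule and other transporting epithelia. PDZK1, a scaffold for transporters at the brush border, held 58.9 and 70.3 FPKM in BLU667, against 1.2 and 1.25 FPKM in DMSO (4.88 ± 0.14). KCNJ13†, an inward rectifier potassium channel (chromosome 2, 232766464 to 232776568, minus strand, GRCh38), held 27.6 and 25.3 FPKM in BLU667, against 0.0906 and 0.0637 FPKM in DMSO (4.67 ± 0.13). SLC17A1, a renal phosphate and urate carrier, held 20.4 and 22.7 FPKM in BLU667, against 0.290 and 0.402 FPKM in DMSO (4.07 ± 0.14). The channel KCNJ13† was below 0.1 FPKM in both DMSO libraries. The channel KCNJ16 (3.85 ± 0.17), the thiazide-sensitive cotransporter SLC12A3 (2.89 ± 0.20), the bicarbonate carrier SLC4A4 (2.02 ± 0.16), the water channel AQP1† (2.79 ± 0.30) and the kidney cadherin CDH16 (3.45 ± 0.19) rose as well. DPEP1, renal dipeptidase, had 0 reads in DMSO and 1123 in BLU667, which is at least 374-fold higher with 3 reads over the group as the floor. The kidney factor PAX2 (1.41 ± 0.18) rose. In the list of 28 tested tubule genes 13 were higher, 5 lower (3 without BLU667 replicate 1 and 3 without BLU667 replicate 2) and 10 not called, with a median of 0.29. Carbonic anhydrase CA12 (-2.76 ± 0.15) and the sodium pump subunit gene ATP1B1 (-0.88 ± 0.16) were among the lower ones. Another 33 of the 61 listed genes were below the filter, and the list was chosen with earlier results of these data known. KCNJ13†, SLC17A1 and DPEP1 passed the filter only through the BLU667 libraries, so their direction was set by it. Among thyroid genes GLIS3, a factor of thyroid and kidney, held 34.6 and 34.9 FPKM in BLU667, against 6.39 and 6.65 FPKM in DMSO (2.25 ± 0.13), and the nuclear receptor THRB (1.35 ± 0.14) rose, while HHEX (-1.19 ± 0.14) and FOXE1‡ (-0.56 ± 0.13, -0.57 to -0.56), factors of thyroid development, fell. The thyroid list had 3 of 7 tested genes higher and 2 lower (1 without BLU667 replicate 1 and 1 without BLU667 replicate 2).

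Secreted regulators of coagulation and blood vessels stood among the top rises. SERPINF2, which encodes the plasmin inhibitor alpha-2-antiplasmin (chromosome 17, 1742836 to 1755268, plus strand, GRCh38), held 35.6 and 47.7 FPKM in BLU667, against 0.230 and 0.242 FPKM in DMSO (5.09 ± 0.17, adjusted p = 8.62e-06). EDN1, which encodes the vasoconstrictor endothelin-1 (chromosome 6, 12290363 to 12297194, plus strand), held 28.3 and 36.2 FPKM in BLU667, against 0.133 and 0.0933 FPKM in DMSO (4.89 ± 0.16, adjusted p = 8.62e-06). Both were close to 0 in each DMSO library. EDN2 (3.07 ± 0.14) rose with it, and the converting enzyme ECE1 (-1.45 ± 0.16) fell. F2RL1, a protease-activated receptor, held 21.1 and 27.6 FPKM in BLU667, against 0.766 and 1.07 FPKM in DMSO (3.72 ± 0.17). Complement C3 (2.36 ± 0.15) and C5 (2.32 ± 0.14) and the tissue factor inhibitor TFPI (1.05 ± 0.15) rose. The urokinase pair PLAU† (-1.63 ± 0.14) and PLAUR (-1.56 ± 0.14), thrombomodulin THBD (-1.44 ± 0.18) and tissue factor F3‡ (-0.55 ± 0.16, -0.62 to -0.49) fell. Of 26 such genes 14 were higher and 6 lower (7 without BLU667 replicate 1 and 3 without BLU667 replicate 2).

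Basement membrane and matrix genes changed in both directions, with more rises. COL4A1, the main collagen of basement membranes, held 239 and 233 FPKM in BLU667, against 35.8 and 33.5 FPKM in DMSO (2.73 ± 0.14). HSPG2†, perlecan, held 105 and 128 FPKM in BLU667, against 24.4 and 16.6 FPKM in DMSO (2.47 ± 0.21). FN1, fibronectin, held 348 and 477 FPKM in BLU667, against 121 and 127 FPKM in DMSO (1.71 ± 0.19). COL4A2 (1.71 ± 0.21), NID2† (2.29 ± 0.22), LAMB1 (1.82 ± 0.14) and LAMB2 (1.76 ± 0.16) rose too, and 25 of 50 matrix genes were higher, with 9 lower (5 without BLU667 replicate 1 and 5 without BLU667 replicate 2). The laminin-332 chain LAMB3 (-2.55 ± 0.18) and the hemidesmosome collagen COL17A1 (-1.57 ± 0.15) fell, as did their receptors ITGA3 (-2.95 ± 0.19) and ITGA6 (-1.95 ± 0.14). The gelatinase MMP2 held 119 and 119 FPKM in BLU667, against 21.8 and 20.4 FPKM in DMSO (2.44 ± 0.13) and its inhibitor TIMP2† (2.17 ± 0.14) rose, while TIMP1 (-2.09 ± 0.13) fell. TGF-beta ligands rose, TGFB2† (2.36 ± 0.15) and TGFB1 (1.94 ± 0.21). RHOB (2.76 ± 0.16), the tropomyosin TPM1† (2.14 ± 0.14) and ACTG1, which held 3524 and 3456 FPKM in BLU667, against 1289 and 1436 FPKM in DMSO (1.36 ± 0.18), rose among actin genes. PFN1 (-1.95 ± 0.18) and CFL1† (-1.35 ± 0.25) fell, and ACTB held 1213 and 1073 FPKM in BLU667, against 1416 and 1546 FPKM in DMSO, and was not called.

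Surface and immune genes were higher in part. CD24, a cell-surface glycoprotein, held 1129 and 1170 FPKM in BLU667, against 66.7 and 69.4 FPKM in DMSO (4.06 ± 0.15), which made it one of the most abundant transcripts of the treated cells. Class I antigen presentation showed HLA-E (1.07 ± 0.15) and B2M‡ (0.67 ± 0.14, 0.59 to 0.75) higher, and 11 of 21 antigen presentation genes were (5 without BLU667 replicate 1 and 4 without BLU667 replicate 2). The 3 lower ones were TAP2† (-1.03 ± 0.17), of the peptide transporter, PSME2‡ (-0.55 ± 0.13, -0.62 to -0.47), of the proteasome activator, and ULBP2 (-1.04 ± 0.17), a ligand of natural killer cells. HLA genes share sequence, so their split is uncertain. Of 44 interferon-stimulated genes 17 were higher (7 without BLU667 replicate 1 and 13 without BLU667 replicate 2), 7 lower (5 without BLU667 replicate 1 and 4 without BLU667 replicate 2) and 20 not called. The share called in the interferon list, 54.5%, was that of all genes tested. The largest rises in this list were STAT2 (1.64 ± 0.14) and the RNA sensor DDX58 (1.5 ± 0.17), and the largest falls IFITM3† (-1.23 ± 0.21) and OAS3 (-1.15 ± 0.13). In the NF-kB list 11 of 22 rose, with TRAF1 (1.96 ± 0.18), RELB (1.83 ± 0.18), NFKBIA (1.69 ± 0.17) and TNFAIP3 (1.58 ± 0.17), and BCL3 (-1.38 ± 0.17) fell. Cytokines followed both ways: IL32 (2.62 ± 0.17), CCL2 (1.89 ± 0.18) and the receptor LIFR (2.5 ± 0.16) rose, and SOCS3 (-2.78 ± 0.17), OSMR (-1.69 ± 0.13) and CSF1‡ (-1.49 ± 0.30, -1.96 to -1.02) fell.

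Some of the largest changes belonged to genes outside these groups. SAT1, which breaks down polyamines, held 273 and 228 FPKM in BLU667, against 18.6 and 18.6 FPKM in DMSO (3.67 ± 0.15). HAVCR1, known as kidney injury molecule 1, held 329 and 350.1 FPKM in BLU667, against 75.6 and 98.0 FPKM in DMSO (1.97 ± 0.18). RAP1GAP, an inactivator of the GTPase RAP1, held 10.8 and 15.9 FPKM in BLU667, against 0.572 and 0.396 FPKM in DMSO (3.25 ± 0.20). The rule that picked the largest rises, SAT1 and RAP1GAP among them, required groups without overlap. DYSF (3.86 ± 0.16), a membrane repair protein, the guidance cue SEMA5A (3.73 ± 0.16), the epithelial ETS factor ELF3† (3.44 ± 0.15), the stereocilium protein ESPN (3.69 ± 0.15) and NABP1 (4.21 ± 0.14), a single-strand DNA binding protein, rose as well. Among falls, G0S2, an inhibitor of the fat lipase ATGL, held 5.90 and 3.32 FPKM in BLU667, against 294 and 176 FPKM in DMSO (-5.39 ± 0.30). TGM2, tissue transglutaminase, held 11.1 and 8.49 FPKM in BLU667, against 310.2 and 261 FPKM in DMSO (-4.74 ± 0.18). SLCO4A1, an organic anion carrier, held 0.280 and 0.170 FPKM in BLU667, against 51.0 and 37.9 FPKM in DMSO (-5.20 ± 0.17). The rule that picked the largest falls required groups without overlap as well. SIGLEC15 (-4.85 ± 0.13), a sialic acid receptor, and DTL (-4.36 ± 0.17), a ubiquitin ligase adaptor of S phase, fell likewise.

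In some gene families 1 member rose and another fell. The 16 pairs in the plot of opposite members were picked after their values were seen, and the difference within a pair was not tested. TUBA1A† held 130.1 and 141 FPKM in BLU667, against 22.4 and 22.9 FPKM in DMSO. TUBA1B† held 13.5 and 19.5 FPKM in BLU667, against 236 and 228 FPKM in DMSO. SOX4 held 105 and 124 FPKM in BLU667, against 14.2 and 11.6 FPKM in DMSO. SOX9 held 3.77 and 4.56 FPKM in BLU667, against 18.8 and 19.1 FPKM in DMSO. FZD2 held 41.3 and 47.3 FPKM in BLU667, against 11.8 and 9.67 FPKM in DMSO. FZD8 held 0.324 and 0.214 FPKM in BLU667, against 12 and 9.20 FPKM in DMSO. SOX factors set cell lineages and FZD receptors bind Wnt ligands. In each of these pairs the first member was called higher (2.53 ± 0.14, 3.06 ± 0.16 and 1.95 ± 0.15) and the second lower (-3.75 ± 0.19, -1.95 ± 0.14 and -3.18 ± 0.17). For alpha-tubulin the dominant transcript changed, TUBA1B in DMSO and TUBA1A in BLU667, in both libraries of each group. Tubulin copies are near-identical and both genes carry the dagger, so reads may be shared between them. Of 18 tubulin and gamma-tubulin complex genes 13 fell, TUBB4B with 35.4 and 27.8 FPKM in BLU667, against 459.6 and 401 FPKM in DMSO (-3.73 ± 0.17), and TUBA1A was the one that rose.

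**Figure D4:**
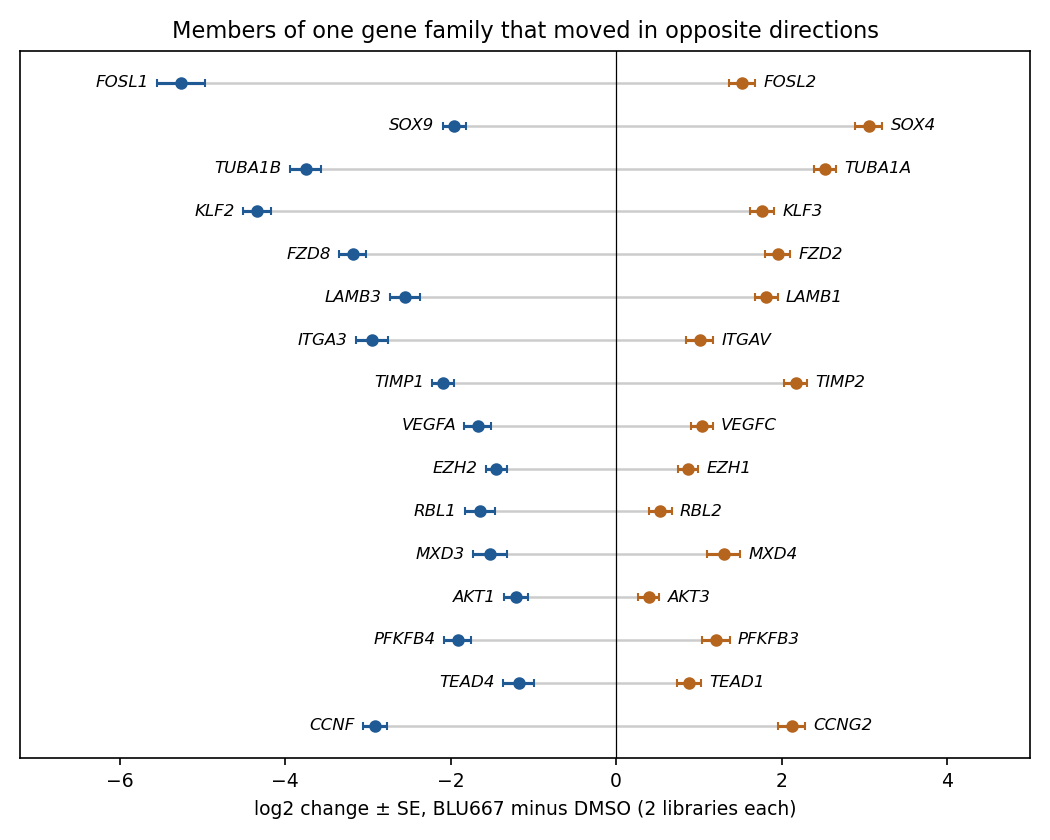
Log2 change ± SE (BLU667 minus DMSO, 2 libraries each) of 16 pairs of related genes, the member called higher on the right and the member called lower on the left. The pairs run from FOSL2 and FOSL1 at the top to CCNG2 and CCNF at the bottom.

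Noncoding and zinc finger genes were called higher more often than lower. Of 1007 long noncoding RNAs tested, 387 were higher and 161 lower, with a median of 0.30, against 2642 higher and 3291 lower of 10670 protein-coding genes with a median of -0.07. Protein-coding rises numbered 1675 without BLU667 replicate 1 and 1545 without BLU667 replicate 2, and falls 2163 without BLU667 replicate 1 and 2022 without BLU667 replicate 2. Long noncoding rises numbered 312 without BLU667 replicate 1 and 311 without BLU667 replicate 2. MALAT1 held 60.0 and 53.2 FPKM in BLU667, against 20.9 and 16.5 FPKM in DMSO (1.55 ± 0.16), and LINC01320 held 8.69 and 9.98 FPKM in BLU667, against 0.799 and 0.656 FPKM in DMSO (2.58 ± 0.14). Transcripts named LINC were higher in 41 of 85 cases. Of 309 genes named ZNF, which mostly encode C2H2 zinc finger factors, 120 were higher (67 without BLU667 replicate 1 and 62 without BLU667 replicate 2) and 24 lower (12 without BLU667 replicate 1 and 10 without BLU667 replicate 2), with a median of 0.25. Genes under 1 FPKM on average also had a median of 0.35 and those of 10 to 30 FPKM one of -0.14. A gene averaging under 1 FPKM passed the filter mostly through the group where it was higher, so the filter shapes its change. The part of level and of the filter in these counts was not tested. The host gene SNHG1† (-1.64 ± 0.13) fell while GAS5‡ (0.68 ± 0.17, 0.48 to 0.87) rose.

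Some genes appeared or vanished within 24 h. The rule was under 0.5 FPKM in both libraries of one group and at least 5 in both of the other. Such a gap makes a call near certain, so calls add no evidence here. By this rule 25 genes appeared in BLU667 and 61 vanished. Colony levels, given as means of 2 libraries in the order BR8, BR10 and BR16, put some of these beside long exposure. SERPINF2, at 35.6 and 47.7 FPKM after 24 h, stood at 0.235, 0.312 and 0.501 FPKM in the colonies and 0.230 and 0.242 FPKM in DMSO. BMF, FOLR1, KCNJ13† and DPEP1 likewise stood under 1 FPKM in every colony. EDN2, at 9.26 and 9.34 FPKM after 24 h, stood at 89.1, 14.3 and 137 FPKM in the colonies and 0.296 and 0.154 FPKM in DMSO. SLC17A1, at 20.4 and 22.7 FPKM after 24 h, stood at 18.6, 6.06 and 14.4 FPKM in the colonies.

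Colony levels differed among vanished genes, and among other genes with large changes that the rule did not pick (MYBL2, MKI67, CDKN1C and CCND1†). NOX5, an NADPH oxidase, held 0.195 and 0.285 FPKM in BLU667, against 63.5 and 56.4 FPKM in DMSO, and 0.0187, 0.225 and 0.0119 FPKM in the colonies. EMP1, a membrane protein, held 0.0580 and 0.0734 FPKM in BLU667, against 35.9 and 34.8 FPKM in DMSO, and 0.0664, 2.66 and 0.115 FPKM in the colonies. NOX5 was under 0.5 FPKM in every colony, as after 24 h, and EMP1 was in BR8 and BR16 but not in BR10. MYBL2, at 0.532 and 0.394 FPKM after 24 h and 83.2 and 70.2 FPKM in DMSO, stood at 31.8, 35.9 and 39.8 FPKM in the colonies. MKI67, at 0.621 and 0.723 FPKM after 24 h and 66.7 and 66.0 FPKM in DMSO, stood at 16.4, 28.8 and 19.7 FPKM. ASF1B, at 0.197 and 0.275 FPKM after 24 h and 37.3 and 31.1 FPKM in DMSO, stood at 28.1, 33.6 and 20.7 FPKM in the colonies. These proliferation genes stood far above the 24 h level in each colony, and MYBL2 and MKI67 stood below both DMSO libraries in each. CDKN1C, at 60.7 and 49.2 FPKM after 24 h and 3.46 and 2.83 FPKM in DMSO, stood at 9.54, 7.26 and 22.7 FPKM. CCND1†, at 3.99 and 3.80 FPKM after 24 h and 104 and 108 FPKM in DMSO, stood at 75.9, 114 and 69.6 FPKM. Genes with 0 reads after 24 h included CHST1, a sulfotransferase that was at least 63.3-fold lower, and the unnamed transcripts AC004585.1 and AC002401.4, at least 43.3-fold and 35.0-fold lower. CILP, a matrix protein of cartilage with 0 reads in DMSO, was at least 356-fold higher.

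**Figure D5:**
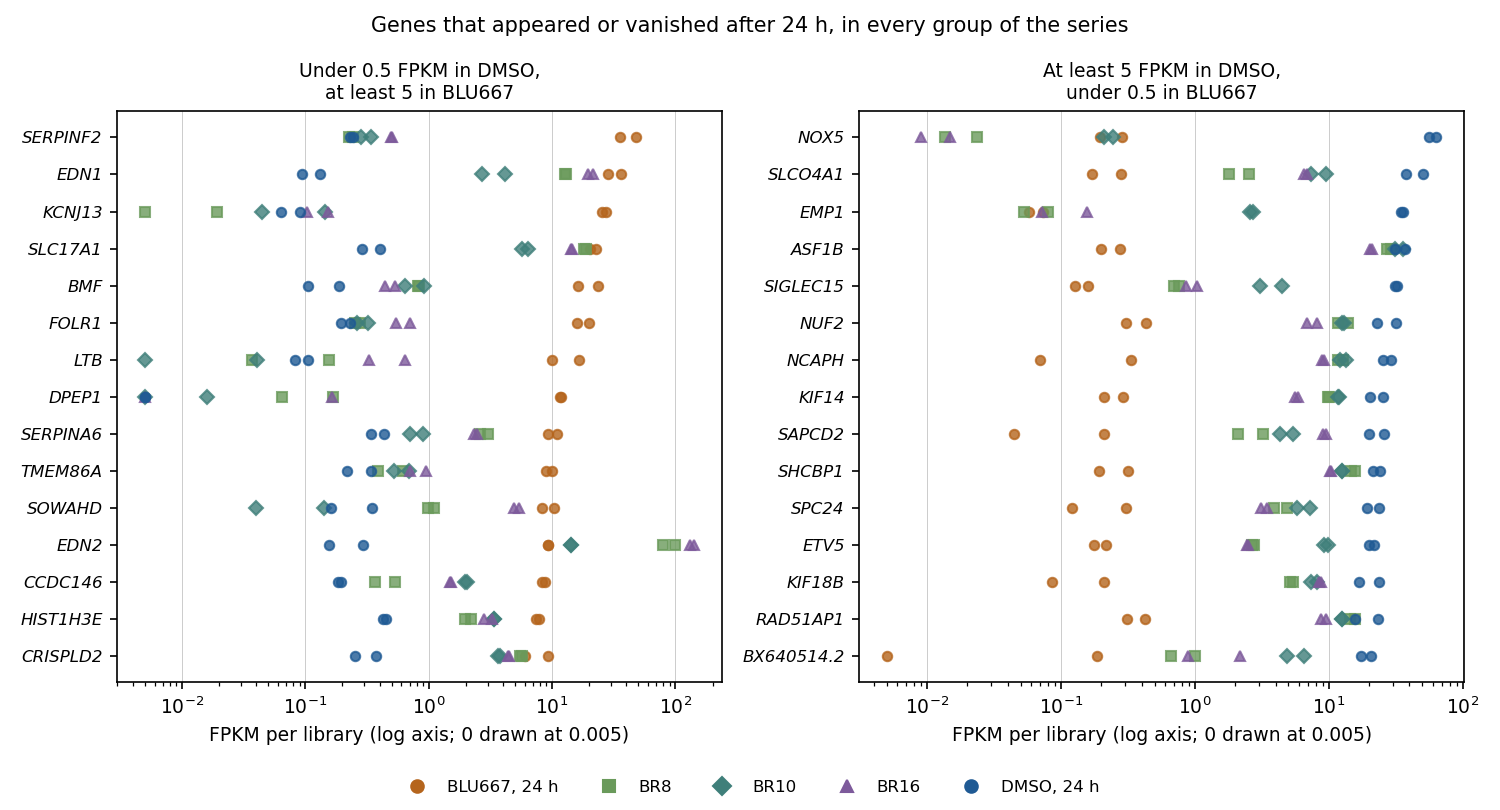
FPKM per library (log axis, 0 drawn at 0.005) of 15 genes that appeared (left) and 15 that vanished (right), in BLU667, the colonies BR8, BR10 and BR16, and DMSO. SERPINF2, KCNJ13 and DPEP1 are high only in the 24 h libraries, EDN2 is highest in BR16, NOX5 is under 0.5 FPKM in every group given BLU667, and ASF1B is far above its 24 h level in the colonies.

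By difference in FPKM among called genes, MT-RNR2‡, ACTG1, MT-ND4L‡, CD24 and EEF1A1‡ gained the most, and HSP90AA1, HSP90AB1, ENO1, TUBB4B and HSPA8 lost the most. MT-RNR2‡, the large mitochondrial ribosomal RNA, held 6654 and 5116 FPKM in BLU667, against 3131 and 3286 FPKM in DMSO (0.86 ± 0.22, 0.67 to 1.05), with the highest value in the BLU667 library that had the highest share of mitochondrial reads. HSP90AB1 held 329 and 359.6 FPKM in BLU667, against 821 and 931 FPKM in DMSO (-1.34 ± 0.17), and ENO1 held 318 and 308 FPKM in BLU667, against 905 and 725 FPKM in DMSO (-1.37 ± 0.18). The 100 most abundant genes took 42.0% and 36.9% of summed FPKM in BLU667, and 35.0% and 36.2% in DMSO. TERT, the catalytic subunit of telomerase, held 0.0494 and 0.163 FPKM in BLU667, against 1.59 and 1.5 FPKM in DMSO (-1.2 ± 0.17), and 8 of 14 telomerase and shelterin genes were lower. The shelterin genes TERF1, TERF2, TERF2IP, TINF2 and POT1 were not called.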

How the data were processed

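RNA-seq of TPC-1 cells came as 1 deposited table of gene FPKM. Per the submitters' processing notes, tools named were CASAVA, STAR 2.5, HTSeq 0.6.1 and DESeq2 (version 2), with GRCh38. Per the labels, RNA went through a GlobinClear step into a non-directional NEB library. The authors' FPKM times gene length gave whole reads, in 1 ratio per library, for 100% of values (tolerance 0.05 reads), from which read totals were taken. Here log2(FPKM + 1) of the 4 libraries, 2 a group, was fitted with limma 3.58.1 in R 4.3.3 (variance trend, 2 residual degrees of freedom, adjusted p under 0.05), after a filter of 1 FPKM in 2 or more libraries. The fit was tested on simulated data. Figures were drawn in Python 3.11.15 with matplotlib 3.10.9. The genes, lists and families were chosen with earlier results of these data known. Named genes were RET and TERT, the largest called changes of each list and family, and members against its direction. Added were the 30 largest rises and falls without overlap of groups and the 15 largest FPKM gains and losses among called genes. Up to 15 genes that appeared or vanished and leading noncoding RNAs were named as well. Some of these genes are not reported here. The 67 lists hold 2171 distinct genes, of which 1669 were tested. Exon overlaps came from a GENCODE 29 table. Alternatives covered the pseudocount, filter, scaling, variance trend, fit over all 10 libraries, GC trend, voom on recovered reads, replicate block and leaving out each library.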

Additional observations from a re-analysis of the deposited data

How the results depend on the processing

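The 3307 rises and 3607 falls stayed within 1.5 times under most alternatives. Exceptions were 2055 rises with a filter of 5 FPKM, 2094 rises and 2290 falls without BLU667 replicate 2, and 1235 rises and 1558 falls when a 2-fold change was required as well. The 1235 rises of at least 2-fold became 788 with that filter and 1908 with voom on recovered reads. Voom gave 1918 falls of at least 2-fold, and called 3680 higher and 3767 lower in all. Leaving out 1 library gave 2094 to 3219 rises and 2290 to 3533 falls, lowest without a BLU667 library, where the lone library is assumed to vary like the DMSO pair. Rises of at least 2-fold then numbered 1231 to 1282 and such falls 1497 to 1667 over the 4 fits. The share of rises among calls was 47.8%, and ran from 42.0% (filter of 5 FPKM) to 52.8% (quantile normalization). Same-numbered libraries were not paired by the labels, and their deviations correlated at 0.085 across genes. The fit with the replicate block gave 3598 rises and 4011 falls, all 10 libraries gave 3947 and 4297, or 3830 and 4168 with the block, and removal of the GC trend together with the replicate block gave 3917 and 3911. Of 329 named genes called, 283 kept call and direction under each of the 17 alternatives in which they were tested (34 called genes were below the filter of 5 FPKM), and none turned direction. The call was lost by 34 without BLU667 replicate 2, 33 without BLU667 replicate 1, 11 without DMSO replicate 1 and 8 without DMSO replicate 2. With no filter, over 28155 genes, 27 lost it, among them ACTG1, CFL1, CTSD, DDIT3 and HBEGF, which kept it in the fits without 1 library. Quantile normalization ended it for 6. Of the 15 named genes not called, 6 were called with all 10 libraries, 5 with voom and 5 with the GC trend removed. Some genes not called changed sign under 1 or more alternatives: BBC3 (-0.0044 to 0.43 over the fits without 1 library), CDK6 (-0.087 to 0.26 over the fits without 1 library), CDKN2A (-0.047 to 0.23 over the fits without 1 library), EGR1 (-0.82 to 0.087 over the fits without 1 library), RRM2B (-0.24 to 0.13 over the fits without 1 library, 0.11 with quantile normalization), TXNIP (0.059 with quantile normalization). The 2 libraries a group limit the precision, and changes of genes under about 1 FPKM rest on few reads.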

Other observations

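Within several pathways members differed in direction. In sterol and fatty acid synthesis 7 of 34 genes were higher and 9 lower, so that 47.1% were called, against 54.5% of all genes tested. ACSS2, which makes acetyl-CoA from acetate, held 36.5 and 58.2 FPKM in BLU667, against 7.01 and 5.53 FPKM in DMSO (2.70 ± 0.23). HMGCS1† (1.26 ± 0.19) rose, and FASN (-1.67 ± 0.17) and SREBF1 (-1.58 ± 0.15) fell. Among targets of ATF4 and CHOP 11 of 19 were lower, led by CHAC1 (-2.41 ± 0.14), and CHOP itself, DDIT3† (1.01 ± 0.20), rose. Of 28 tested genes in the list of endoplasmic reticulum chaperones 3 were higher and 15 lower (median -0.53). Against that direction HERPUD1, of protein disposal in that compartment, held 102 and 103 FPKM in BLU667, against 17.4 and 19.1 FPKM in DMSO (2.43 ± 0.13). The chaperone SDF2L1 (-2.17 ± 0.16) fell. Of 26 NRF2 and iron genes 4 were higher and 10 lower (median -0.36). AKR1C3 (1.84 ± 0.17) and AKR1B1 (1.25 ± 0.18) rose, and GCLM (-1.27 ± 0.16) and TXNRD1 (-1.02 ± 0.17) fell.

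In the Notch list the target HES1 held 0.799 and 0.865 FPKM in BLU667, against 19.8 and 17.7 FPKM in DMSO (-3.43 ± 0.13), and the ligand JAG1 held 17.4 and 15.7 FPKM in BLU667, against 1.76 and 1.85 FPKM in DMSO (2.64 ± 0.13). Of 17 Notch genes 4 were higher (2 without BLU667 replicate 1 and 4 without BLU667 replicate 2) and 6 lower. Of 7 Hedgehog genes 5 were higher, with GLI2 (0.86 ± 0.14) and SMO (0.81 ± 0.14). In the YAP and TEAD list 10 of 22 genes were higher and 4 lower. NT5E, the ecto-nucleotidase CD73, held 8.41 and 5.32 FPKM in BLU667, against 88.9 and 109 FPKM in DMSO (-3.69 ± 0.22), and AJUBA (1.71 ± 0.13) rose. Among junction genes GJA1, connexin 43, held 202 and 223 FPKM in BLU667, against 36.4 and 40.7 FPKM in DMSO (2.43 ± 0.15), and GJB2, connexin 26, held 0.692 and 0.429 FPKM in BLU667, against 5.55 and 6.76 FPKM in DMSO (-2.20 ± 0.16). The drug exporters ABCC4 (2.02 ± 0.15) and ABCB1 (1.2 ± 0.16) rose, the second of which held 2.06 and 2.46 FPKM in BLU667, against 0.464 and 0.370 FPKM in DMSO. Of 36 factors of lineage and mesenchyme 10 were higher, with SNAI1 (1.37 ± 0.15) and SNAI2 (1.40 ± 0.16), and 13 lower (11 without BLU667 replicate 1 and 7 without BLU667 replicate 2), with SOX9 (-1.95 ± 0.14), NFIC (-1.26 ± 0.18) and ZEB1‡ (-0.63 ± 0.14, -0.74 to -0.52).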
